A study of Mus musculus with 42 samples.

Results

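Memory Th1 cells of the mouse were compared with effector Th1 cells, the stimulated T helper cells from which they were derived. The members were the samples titled as memory Th1 and effector Th1 with the numbers 1 to 3, which makes 3 samples on either side, 6 of the 21 samples of the series, and 12 of its 42 arrays. Effector Th1 cells deliver help against intracellular microbes through cytokines and cytotoxic granules, divide fast and draw energy from aerobic glycolysis. Memory T cells are long-lived, mostly do not divide, and keep signalling in check until antigen returns.

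All cells started as naive CD4+ T cells. The mice carried 2 transgenes, GFP and the AND T cell receptor for a peptide of pigeon cytochrome C on I-Ek. The protocols name the spleen as their source, and the source field of every sample names the thymus. Effector Th1 cells were harvested after 4 days of stimulation in culture, under Th1 conditions, by antigen-presenting cells (APC). Memory Th1 cells had gone through that culture, then through 3 more days without APC, and were then placed by adoptive transfer into hosts that had been thymectomised, lethally irradiated and reconstituted with T cell-depleted bone marrow. They were recovered by flow sorting 4 to 12 weeks later. Memory cells thus differ from effector cells in age after stimulation, in having lived in a host, and in having been sorted, and these cannot be told apart. The RNA came from cryopreserved cells, 5 to 15 µg per labelling in every group. Levels in naive cells and in rested Th1 cells, which had spent the 3 days without APC and were not transferred, are given beside the results as a description.

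Each sample has 2 arrays of radioactive cDNA, a and b, with 9600 spots that belong to 4992 reporters. A level is log2(intensity + 1) after quantile normalisation, averaged over the spots of a reporter and over arrays a and b, and changes are differences of levels, memory minus effector, in log2 units with their standard error (SE). The deposited files carry no detection call, so the level of an empty spot is unknown and a fall to a low level may be understated. The 12 arrays had median intensities of 8.17 to 9.64, between 26 and 378 spots at 0, and maxima of 4459.2 to 16277.4. The median level over reporters was 3.13. Across reporters the effector samples correlated with each other at r = 0.935 to 0.962 and the memory samples at 0.893 to 0.912, while an effector and a memory sample correlated at 0.846 to 0.904. The median SD of a reporter was 0.32 in effector and 0.46 in memory samples.

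The log ratio of array a to array b, spot by spot, formed the same pattern (r = 1.0) in effector Th1 and effector Th2 samples of the same number, and likewise in rested and in memory samples of both lineages. Samples 1 and 3 of memory Th1 and memory Th2 cells also shared it with naive samples 1 and 3. Pairs other than these had r of at most 0.068. Arrays a and b of a sample are therefore not taken as independent readings. How the pattern arose is not stated in the sources used here. No effector sample shared a pattern with a memory sample, so the stage of the cells and whatever set the pattern cannot be told apart in the comparison below. With the pattern as a random block in the fit, 681 reporters were called in place of 704. Since no pattern spans effector and memory samples, that count cannot show whether stage or pattern set the calls.

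Of the 4992 reporters 704 (14.1%) differed between memory and effector Th1 cells at a false discovery rate of 0.05, the threshold for every call here. Memory cells were higher at 345 reporters (6.91%) and lower at 359 (7.19%). At an unadjusted p under 0.05 there were 1382. The falls reached further than the rises. Called falls ran from 0.62 to 5.70 with a median of 1.41, and 72 of them exceeded 2 log2 units. Called rises ran from 0.65 to 3.66 with a median of 1.15, and 12 exceeded 2. Over the 3230 named genes 212 rose (6.56%) and 273 fell (8.45%), and the median change of all named genes was 0.02. Fitted on the 6 compared samples alone, without the spread of the other groups, 103 reporters were higher and 189 lower. The count of rises was 206 without effector sample 1 and 210 without memory sample 3, and that of all calls was 465 without effector sample 1. All 3 memory samples lay above all 3 effector samples at 738 reporters (14.8%) and below them at 626 (12.5%).

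**Figure D1:**
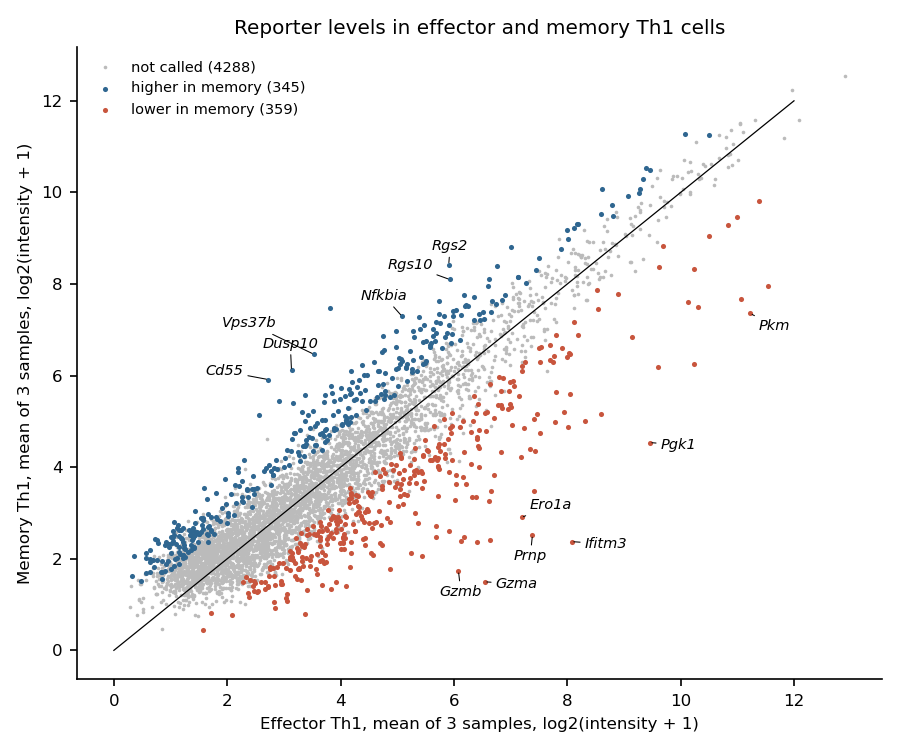
Mean level of each of the 4992 reporters in effector Th1 (x axis) and memory Th1 samples (y axis), 3 samples each, in log2(intensity + 1); the line marks equal levels and thin lines join names to their points. Called reporters are coloured, 345 above and 359 below the line, and the points farthest from the line are below it, Ifitm3, Gzma and Pgk1 among them.

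The largest fall was that of Ifitm3 (Entrez 66141), an interferon-induced membrane protein that blocks the entry of viruses. Its level was 8.15, 8.11 and 7.98 in effector samples 1 to 3 and 1.89, 2.20 and 3.03 in memory samples. It fell by 5.70 ± 0.30 log2 units, or 52.2-fold (SE; n = 3 in either group; adjusted p = 1.27e-10). The effector samples lay close together and far above all memory samples. Rested Th1 cells had a mean of 2.64 and naive cells 3.30, both nearer to the memory samples.

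The granzymes, serine proteases of cytotoxic granules, were the next group. Gzma (Entrez 14938) stood at 6.67, 6.29 and 6.67 in effector and at 1.42, 1.84 and 1.23 in memory samples. It fell by 5.05 ± 0.26 (33.1-fold, adjusted p = 1.27e-10). Naive cells, at a mean of 6.52, and rested cells, at 6.38, were as high as effector cells at this reporter, and memory cells alone among the Th1 path were low. Gzmb (Entrez 14939) was at 7.17, 4.95 and 6.13 in effector and at 1.32, 1.76 and 2.12 in memory samples. The effector samples scattered widely, and all still lay above the memory samples. Gzmb fell by 4.35 ± 0.46 (20.3-fold, adjusted p = 1.51e-06), and it was at 2.19 in rested and 2.48 in naive cells. The other measured genes of the Th1 effector list did not pass the test. Il12rb1, a chain of the IL-12 receptor, had means of 3.14 and 2.15 (change -0.99, adjusted p = 0.0722), the pore-forming protein gene Prf1 1.56 and 1.39, the lymphotoxin gene Lta 1.46 and 1.86, and the transcription factor gene Irf1 4.57 and 4.92. So 1 of the 5 members, Gzmb, was called, where 15% of all named genes were, with a median change of -0.16 against 0.02 over all named genes. Gzma is not on this list but on those of memory-associated genes and of CD8 T and NK cell markers.

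Glycolytic enzymes were among the genes that fell furthest. Of 10 measured genes of glycolysis 6 fell and 0 rose, and the median change was -2.29. Over all named genes 8.45% fell. This list and the others below were written with earlier results of these data known. A share above that of all named genes is therefore a description only. Phosphoglycerate kinase, an ATP-yielding enzyme of glycolysis, is encoded by Pgk1 (Entrez 18655). Its level was 9.44, 9.13 and 9.81 in effector and 3.78, 4.75 and 5.08 in memory samples. Pgk1 fell by 4.92 ± 0.43 (30.2-fold, adjusted p = 1.19e-07), and every effector sample was far above every memory sample. The pyruvate kinase gene Pkm (Entrez 18746), which acts at the last step, was at 11.29, 10.99 and 11.41 in effector and 7.24, 7.43 and 7.40 in memory samples. It fell by 3.87 ± 0.24 (14.6-fold, adjusted p = 1.41e-09), and the 3 memory samples lay next to the naive mean of 7.25.

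Both aldolase genes fell, Aldoa (Entrez 11674) by 3.44 ± 0.35 (adjusted p = 9.88e-07) and Aldoc (Entrez 11676) by 3.71 ± 0.42 (adjusted p = 3.94e-06). Aldoa was at 8.34, 8.97 and 8.47 in effector and at 4.57, 5.89 and 5.00 in memory samples. Its 3 reporters all fell, by 3.44, 3.31 and 2.74. Lactate dehydrogenase A, which turns pyruvate into lactate, is encoded by Ldha (Entrez 16828). Ldha was at 7.53, 7.81 and 7.98 in effector and at 3.98, 5.83 and 5.11 in memory samples, and it fell by 2.80 ± 0.41 (adjusted p = 7.86e-05). The memory samples scattered widely without reaching the lowest effector sample. Hexokinase 1, which traps glucose in the cell, fell as well (Hk1, 1.78 ± 0.34, adjusted p = 0.00131). The muscle-type phosphofructokinase gene Pfkm (change -0.84, adjusted p = 0.187), the glucose transporter gene Slc2a1 (-0.51, 0.271), the lactate carrier gene Slc16a1 (-0.22, 0.732) and the regulatory enzyme gene Pfkfb3 (0.22, 0.79) did not pass the test.

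Along the path from naive to memory, the glycolytic genes Pgk1, Ldha and Aldoa had their highest mean in effector cells. Pgk1 averaged 4.33 in naive, 9.46 in effector, 4.94 in rested and 4.54 in memory cells. Ldha averaged 4.88, 7.77, 5.10 and 4.98 in the same order. Aldoa averaged 4.14, 8.59, 5.94 and 5.16. In each of them the rested mean lay close to the memory mean and far from the effector mean.

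Genes whose transcription follows oxygen and glycolytic state often carry the letters ACGTG, the core of the site bound by hypoxia-inducible factors, near their start. The RefSeq promoter windows (GRCm38.p6, 250 bases before to 50 after the start) were searched for ACGTG on both strands, with CACGTG counting once per strand. A gene with several windows counted as holding a match if any of them did. For such a gene the first window listed is shown. All 6 called glycolytic genes held a match, and so did the 4 genes that were not called, against 21.8% of 27025 genes with a window. Shown are the windows of Pgk1 (chrX:106186850-106187149, plus strand, 2 matches), the largest fall, of Ldha (chr7:46845554-46845853, plus strand, 5 matches), and of Ero1a (chr14:45318523-45318822, minus strand, 1 match), an enzyme of the endoplasmic reticulum described below. Capitals mark the matches, in the direction of transcription.
Pgk1: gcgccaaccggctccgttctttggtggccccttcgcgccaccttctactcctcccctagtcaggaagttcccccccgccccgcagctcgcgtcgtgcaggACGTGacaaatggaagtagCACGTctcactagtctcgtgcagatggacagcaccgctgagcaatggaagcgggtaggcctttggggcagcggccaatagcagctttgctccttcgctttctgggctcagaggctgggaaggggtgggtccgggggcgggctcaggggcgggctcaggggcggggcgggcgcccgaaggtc
Ldha: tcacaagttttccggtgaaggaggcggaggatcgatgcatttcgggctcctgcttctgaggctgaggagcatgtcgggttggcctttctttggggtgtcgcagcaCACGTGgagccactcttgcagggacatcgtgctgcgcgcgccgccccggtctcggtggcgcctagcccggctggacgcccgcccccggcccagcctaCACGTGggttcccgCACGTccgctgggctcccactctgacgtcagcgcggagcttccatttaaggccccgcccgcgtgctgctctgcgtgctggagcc
Ero1a: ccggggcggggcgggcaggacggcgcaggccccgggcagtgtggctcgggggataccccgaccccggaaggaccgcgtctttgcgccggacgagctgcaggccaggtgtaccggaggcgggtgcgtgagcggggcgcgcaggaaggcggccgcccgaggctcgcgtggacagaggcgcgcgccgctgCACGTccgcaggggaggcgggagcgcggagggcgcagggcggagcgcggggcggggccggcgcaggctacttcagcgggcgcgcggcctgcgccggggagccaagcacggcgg
The match is a description of these letters, not of binding, and it did not separate called from uncalled glycolytic genes.

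**Figure D2:**
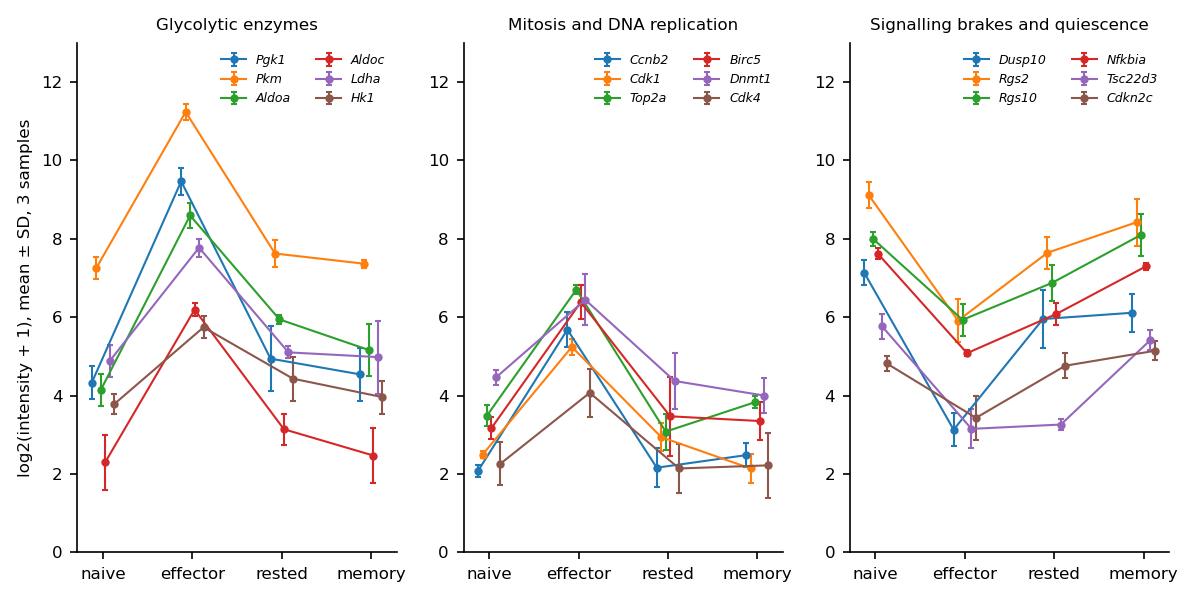
Mean level ± SD over 3 samples, log2(intensity + 1), in naive, effector Th1, rested Th1 and memory Th1 cells for 6 glycolytic enzymes (left), 6 genes of mitosis and DNA replication (middle) and 6 signalling brakes or quiescence genes (right). Effector cells are the high point in the left and middle panels and the low point for most genes of the right panel; Tsc22d3 was about as low in rested as in effector cells.

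Of 62 measured genes of the cell cycle and DNA replication 24 fell in memory cells, 1 rose and 37 did not pass the test, where 8.45% of all named genes fell. The median change was -0.66 against 0.02 over all named genes, and 11 of the 62 changes were above 0. The mitotic cyclin gene Ccnb2 (Entrez 12442) was at 5.56, 5.31 and 6.18 in effector and at 2.13, 2.59 and 2.71 in memory samples. It fell by 3.21 ± 0.33 (9.23-fold, adjusted p = 1.03e-06), without overlap. Its partner kinase gene Cdk1 (Entrez 12534) was at 5.20, 5.07 and 5.46 in effector and at 2.01, 2.54 and 1.86 in memory samples, and fell by 3.10 ± 0.25 (8.60-fold, adjusted p = 4.59e-08). Both had naive means, 2.08 and 2.49, close to the memory samples.

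Top2a (Entrez 21973), which untangles DNA, was at 6.74, 6.58 and 6.78 in effector and at 3.81, 3.99 and 3.69 in memory samples. It fell by 2.87 ± 0.24 (7.33-fold, adjusted p = 1.07e-07), and the 3 samples of either group lay close together. Birc5, the survivin gene of the chromosomal passenger complex, fell by 3.03 ± 0.39, and the spindle checkpoint gene Bub1b by 2.08 ± 0.32. Dnmt1, which copies DNA methylation at replication forks, fell by 2.44 ± 0.37 and the DNA ligase gene Lig1 by 1.47 ± 0.29. The kinase gene Cdk4, which acts in G1, fell by 1.85 ± 0.44 (adjusted p = 0.00681). The rise was that of the condensin gene Ncaph (0.88 ± 0.26, adjusted p = 0.0311).

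The replication clamp gene Pcna (change -1.20), the proliferation marker gene Mki67 (-0.56) and the helicase genes Mcm3 (-0.74) and Mcm2 (0.64) were among the 37 cell cycle genes that did not pass the test. The helicase gene Mcm6 fell by 1.45 ± 0.44 (adjusted p = 0.0332). The inhibitor gene Cdkn2c (Entrez 12580), whose p18 protein blocks Cdk4 and Cdk6, went the other way. It was at 3.60, 3.88 and 2.81 in effector and at 5.32, 4.88 and 5.23 in memory samples, and rose by 1.71 ± 0.27 (adjusted p = 0.000209). Its second, dimmer reporter changed by -0.34 and was not called (adjusted p = 0.408).

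Many genes expressed in G2 and mitosis carry the element TTTGAA, known as the CHR, near their start, and CCAAT boxes upstream. The same promoter windows were searched for both on either strand, and a gene again counted if any of its windows matched. Of the 24 cell cycle genes that fell 20 had a window, and 12 of these (60%) held TTTGAA, 14 (70%) CCAAT and 10 (50%) both. Of 32 uncalled cell cycle genes with a window 13 (40.6%) held TTTGAA, 26 (81.2%) CCAAT and 10 (31.2%) both. Over all 27025 genes the shares were 20.2%, 41.1% and 7.97%. The windows of the 3 genes described in full are shown, with matches in capitals and read in the direction of transcription, since they hold both elements: Ccnb2 (chr9:70421505-70421804, minus strand), Cdk1 (chr10:69352863-69353162, minus strand) and Top2a (chr11:99024140-99024439, minus strand). ATTGG is CCAAT, and TTCAAA is TTTGAA, on the other strand.
Ccnb2: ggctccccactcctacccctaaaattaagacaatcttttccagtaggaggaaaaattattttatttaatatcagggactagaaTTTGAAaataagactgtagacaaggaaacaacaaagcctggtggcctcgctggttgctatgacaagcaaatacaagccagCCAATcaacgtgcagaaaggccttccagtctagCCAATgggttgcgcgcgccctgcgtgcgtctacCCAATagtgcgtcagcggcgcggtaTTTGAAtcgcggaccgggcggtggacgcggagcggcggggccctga
Cdk1: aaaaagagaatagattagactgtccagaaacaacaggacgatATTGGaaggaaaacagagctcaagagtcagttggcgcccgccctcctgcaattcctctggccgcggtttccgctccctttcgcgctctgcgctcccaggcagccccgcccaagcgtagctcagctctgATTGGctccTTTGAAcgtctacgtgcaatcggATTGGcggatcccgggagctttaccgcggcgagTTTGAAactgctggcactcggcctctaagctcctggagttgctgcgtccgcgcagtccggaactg
Top2a: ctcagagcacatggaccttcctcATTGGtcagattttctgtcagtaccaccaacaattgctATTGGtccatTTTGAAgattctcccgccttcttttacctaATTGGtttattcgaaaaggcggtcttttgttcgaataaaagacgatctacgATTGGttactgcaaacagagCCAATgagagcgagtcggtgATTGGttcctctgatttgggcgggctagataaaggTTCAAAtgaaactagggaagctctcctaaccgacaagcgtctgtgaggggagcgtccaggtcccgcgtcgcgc
Each of them held TTTGAA 2 times, and CCAAT stood 3 times in the windows of Ccnb2 and Cdk1 and 6 times in that of Top2a.

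**Figure D3:**
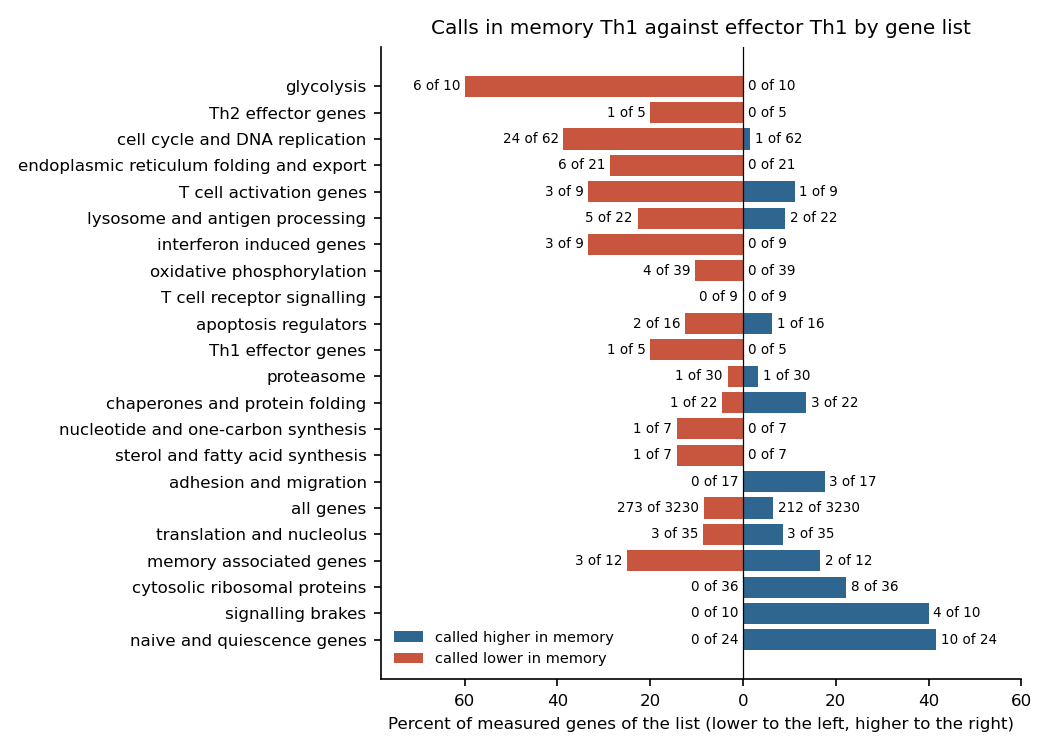
Percent of the measured genes of each list called higher (right) or lower (left) in memory Th1 than in effector Th1 cells, with counts beside the bars, ordered by the median change of the list. Glycolysis, at 6 of 10, has the longest bar to the left, and the naive and quiescence genes, at 10 of 24, the longest to the right.

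Protein folding and export through the endoplasmic reticulum, which secreting cells need, was lower at 6 of 21 measured genes and higher at 0, with a median change of -0.59, where 8.45% of all named genes fell. Ero1a (Entrez 50527), the oxidase that feeds disulfide formation, was at 7.08, 7.31 and 7.19 in effector and at 2.96, 3.04 and 2.71 in memory samples. It fell by 4.29 ± 0.25 (19.6-fold, adjusted p = 7.97e-10), and the 3 samples of a group lay close together. Xbp1, the transcription factor of the unfolded protein response, fell by 1.63 ± 0.25 (adjusted p = 0.000125). The chaperone gene Hsp90b1 fell by 1.45 ± 0.20, the oligosaccharyltransferase genes Ostc by 1.44 ± 0.28 and Rpn2 by 1.19 ± 0.30, and the translocon gene Sec61g by 0.96 ± 0.21. Genes of oxidative phosphorylation fell at 4 of 39, a share near the 8.45% of all named genes, so the count is no result about the list. The 4 were the complex I genes Ndufv3 (2.16 ± 0.26), Ndufa8 (1.86 ± 0.32) and Ndufb9 (1.19 ± 0.32) and the ATP synthase gene Atp5j (0.91 ± 0.28). The list had no rise and a median change of -0.30, and 2 of its falls were left without effector sample 1 or 3 or without memory sample 3.

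Several other genes were among the 15 largest falls. Prnp (Entrez 19122), the prion protein gene, was at 7.62, 7.11 and 7.42 in effector and at 2.33, 3.14 and 2.07 in memory samples, and fell by 4.87 ± 0.32 (29.2-fold, adjusted p = 3.84e-09). Akt1 (Entrez 11651), a kinase downstream of PI3 kinase in growth factor and costimulatory signalling, was at 7.41, 7.04 and 7.78 in effector and at 4.28, 3.00 and 3.15 in memory samples. It fell by 3.93 ± 0.33 (15.2-fold, adjusted p = 1.07e-07). In both genes the lowest effector sample was well above the highest memory sample. Tgm2, a protein cross-linking transglutaminase, fell by 4.24 ± 0.31, the executioner caspase gene Casp6 by 3.75 ± 0.38, and the metal-binding metallothionein gene Mt1 by 3.38 ± 0.36. The stress-response gene Gadd45g fell by 3.34 ± 0.48, and Gm5177, which RefSeq lists as a transcribed pseudogene, by 3.40 ± 0.36. A cDNA reporter for a pseudogene can take up RNA of its parent gene, so the source of that signal is uncertain.

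**Figure D4:**
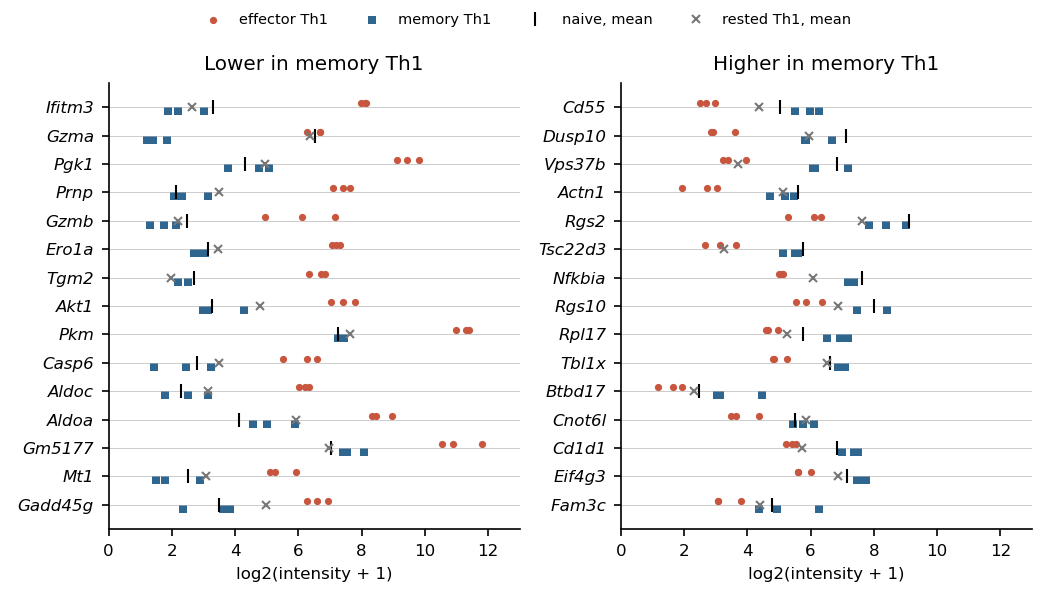
Levels, log2(intensity + 1), of the 15 genes with the largest falls (left) and rises (right) in memory Th1 against effector Th1 cells; each circle is an effector sample and each square a memory sample, 3 per group, with the naive and rested Th1 means as a tick and a cross. Genes were chosen among those whose effector and memory samples do not overlap, so the separation of circles and squares comes from the choice; for Gzma the naive and rested means lie with the effector samples.

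The largest named rise was that of Cd55 (Entrez 13136), the decay-accelerating factor that protects cells from complement. Its level was 2.50, 2.97 and 2.71 in effector and 6.27, 5.97 and 5.50 in memory samples. Cd55 rose by 3.19 ± 0.24 (9.11-fold, adjusted p = 2.06e-08), with a wide gap between the groups. It averaged 4.37 in rested and 5.04 in naive cells, between effector and memory cells.

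Of 10 measured genes that restrain signalling 4 rose and 0 fell, with a median change of 0.58, where 6.56% of all named genes rose. The other 6 did not pass the test. Since the list was written with earlier results of these data known, its share is a description only. Dusp10 (Entrez 63953), a phosphatase that switches off the JNK and p38 MAP kinases, was at 2.93, 2.86 and 3.61 in effector and at 5.84, 5.81 and 6.68 in memory samples. It rose by 2.98 ± 0.37 (7.88-fold, adjusted p = 1.18e-05), and rested cells were already at 5.95. The G protein regulator gene Rgs2 (Entrez 19735), which shortens signals of G protein-coupled receptors, was at 6.32, 5.29 and 6.12 in effector and at 8.39, 9.03 and 7.84 in memory samples. It rose by 2.51 ± 0.35 (5.71-fold, adjusted p = 5.62e-05).

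Rgs10 (Entrez 67865), of the same family, was at 5.87, 5.55 and 6.36 in effector and at 8.41, 7.48 and 8.41 in memory samples and rose by 2.17 ± 0.31 (adjusted p = 7.5e-05). Nfkbia (Entrez 18035), which encodes the NF-κB inhibitor IκBα, was at 5.01, 5.14 and 5.11 in effector and at 7.36, 7.32 and 7.19 in memory samples. It rose by 2.21 ± 0.23 (4.62-fold, adjusted p = 1.51e-06), and its second reporter rose by 1.85 ± 0.33. The 3 samples of either group lay close together. Rasa1, Rasa2, Dgka, Ptpn6, Rgs3 and Rgs19, the other measured brakes, changed by -0.20 to 0.85 and did not pass the test.

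Of 24 measured genes of naive and quiescent T cells 10 rose and 0 fell, with a median change of 0.69, where 6.56% of all named genes rose. Dusp10, Rgs2, Nfkbia and Cdkn2c belong to this list too, so its count is not separate from those above. It was also written with earlier results known. Tsc22d3 (Entrez 14605), which encodes the glucocorticoid-induced leucine zipper GILZ, was at 3.65, 2.65 and 3.15 in effector and at 5.60, 5.13 and 5.50 in memory samples. It rose by 2.26 ± 0.28 (4.78-fold, adjusted p = 1.01e-05). Rested cells, at 3.26, resembled effector cells at this gene, while naive cells were at 5.76. Actn1 (Entrez 109711), an actin cross-linker, rose by 2.57 ± 0.30 from 3.04, 1.94 and 2.72 to 5.18, 4.73 and 5.49 (adjusted p = 5.6e-06), and rested cells had a mean of 5.14.

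Smad4, the shared mediator of TGF-β signalling, rose by 1.39 ± 0.31 and Txnip, which curbs glucose uptake and binds thioredoxin, by 0.87 ± 0.21 (adjusted p = 0.00719). The GTPase gene Gimap4 (0.75 ± 0.22, adjusted p = 0.0307) and the transcription factor gene Klf9 (0.69 ± 0.20, adjusted p = 0.0269) rose less. The IL-7 receptor gene Il7r, a survival receptor of naive and memory cells, was not called, at 3.36 in effector and 2.55 in memory cells (change -0.81, adjusted p = 0.568). The lymph node homing receptor gene Ccr7 (0.66, adjusted p = 0.572), Foxo1 (0.65, 0.189) and Bach2 (0.28, 0.506), transcription factor genes of resting cells, were not called either.

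Among the other large rises, Vps37b (Entrez 330192), a subunit of the ESCRT-I sorting complex, was at 3.39, 3.22 and 3.97 in effector and at 6.15, 6.08 and 7.17 in memory samples. It rose by 2.94 ± 0.38 (7.65-fold, adjusted p = 1.91e-05), and rested cells, at 3.70, were still at the effector level. The lipid-presenting molecule gene Cd1d1 rose by 1.90 ± 0.31 and the transcriptional corepressor gene Tbl1x by 1.99 ± 0.24. Cnot6l, a deadenylase that shortens mRNA tails, rose by 1.94 ± 0.27. Btbd17 rose by 1.96 ± 0.39 and the secreted-protein gene Fam3c by 1.88 ± 0.39. All 30 of the largest changes kept their call in each of the 6 fits without a sample.

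Of 36 measured genes of cytosolic ribosomal proteins 8 rose and 0 fell, where 6.56% of all named genes rose. The median change was 0.31, and 30 of 36 changes were above 0, as were 1658 of 3230 over all named genes. The count was 16 with median centring in place of quantile normalisation, 3 on the 6 compared samples alone, 4 without effector sample 1 or memory sample 3, and 5 without memory sample 1 or on array b alone. Rpl17 rose by 2.13 ± 0.29 (adjusted p = 3.4e-05), from 4.67, 4.60 and 4.96 to 7.19, 6.51 and 6.92. Rpl10a rose by 1.80 ± 0.26 and Rps21 by 1.15 ± 0.21. Such genes have many near-identical processed pseudogenes, and cDNA reporters may not separate them.

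Initiation factor and nucleolar genes had 3 rises and 3 falls among 35 and a median change of 0.03, near the shares of all named genes (6.56% rose and 8.45% fell), so the counts are no result about the list. Without effector sample 3 there was 1 fall, and without memory sample 2 there were 5 rises. Eif4g3, a scaffold of cap-dependent translation, rose by 1.89 ± 0.23 and Nop58, a core protein of box C/D small nucleolar RNPs, by 1.64 ± 0.24. Npm1, the nucleolar chaperone nucleophosmin, fell by 2.30 ± 0.23 from 9.27, 9.08 and 9.10 to 6.74, 7.23 and 6.58 at its brighter reporter. Its second reporter changed by 0.05 (adjusted p = 0.923), so the fall rests on 1 reporter.

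Genes linked to memory T cells in the literature went both ways. Of 12 measured 2 rose and 3 fell, with a median change of 0.09, where 6.56% of all named genes rose and 8.45% fell. Tnfsf8, the CD30 ligand gene, rose by 1.35 ± 0.29 (adjusted p = 0.00349) from 1.36, 1.03 and 1.07 to 2.07, 2.38 and 3.04. All of these levels lay below the median level over reporters, 3.13. Anxa1, a phospholipid-binding protein gene, rose by 0.84 ± 0.26 (adjusted p = 0.0379). The falls were Gzma, Anxa2 (3.17 ± 0.39) and Lgals1 (2.53 ± 0.21). Lgals1, which encodes the carbohydrate-binding lectin galectin-1, was at 10.21, 10.16 and 10.03 in effector and at 7.55, 7.74 and 7.51 in memory samples. A second, dimmer Anxa2 reporter changed by -0.39 (adjusted p = 0.559).

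Activation genes were mixed. For every list of this paragraph, the shares to set beside the counts are those of all named genes, 6.56% rising and 8.45% falling. Tnfrsf9, the costimulatory receptor 4-1BB, fell by 2.25 ± 0.34 (adjusted p = 0.000138), from 3.41, 3.35 and 4.26 to 1.31, 1.21 and 1.74. The immediate early genes Fos (1.20 ± 0.32, adjusted p = 0.0167) and Egr1 (0.93 ± 0.22, adjusted p = 0.00862) fell, while Slc3a2, the CD98 heavy chain gene, rose by 1.04 ± 0.34 (adjusted p = 0.0461). That makes 3 falls and 1 rise among 9. None of 9 measured genes of T cell receptor signalling passed, with changes from -1.21 (the adaptor gene Lcp2, adjusted p = 0.0585) to 0.28 (the adaptor gene Grb2). Of 9 interferon-induced genes 3 fell, Ifitm3, Ly6e (1.10 ± 0.28) and the peptide transporter gene Tap2 (1.03 ± 0.32), and 0 rose. A second, dimmer Ly6e reporter changed by -0.65 and was not called (adjusted p = 0.329). B2m, the light chain of MHC class I, was at 10.91 and 10.60 (adjusted p = 0.342). Of 17 adhesion and migration genes 3 rose and 0 fell: the membrane-actin linker gene Ezr (1.06 ± 0.31), the integrin ligand gene Icam1 (0.84 ± 0.22) and the integrin gene Itga2 (0.69 ± 0.23). Icam1 kept its call without any 1 of the 6 samples, though not on array b alone (adjusted p = 0.858). Without any 1 of the effector samples, or memory sample 1 or 3, 1 call of the list was left.

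Markers of other cells were read beside these results, since APC were in the effector culture and memory cells came out of a host. A single CD4 T cell marker had a named reporter, Cd247, the zeta chain of the T cell receptor complex, at means of 2.00 in effector and 1.76 in memory cells, so the labelled cell type could hardly be checked. The summed level of 10 myeloid markers was 30.4 to 31.5 in effector and 31.0 to 34.2 in memory samples. Of their 10 changes 7 were above 0, with a median of 0.50 against 0.02 over all named genes. Lyz2 (1.91 ± 0.31) and Fcer1g (1.08 ± 0.34) fell, and Ctsb rose by 1.55 ± 0.27 at its brighter reporter and fell by 1.16 ± 0.30 at the other. For every marker list, the shares to set beside the calls are those of all named genes, 6.56% rising and 8.45% falling. The sum over 4 granulocyte markers was 17.2 to 19.2 in effector and 15.7 to 17.1 in memory samples, with Ltf (1.30 ± 0.27) and S100a9 (1.14 ± 0.33) lower in memory cells. The memory mean of S100a9 was 0.44 and that of Lyz2 0.93, and no marker was at 0.

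The sum of 4 erythroid and platelet markers was 8.4 to 9.0 and 5.8 to 8.0, with 0 calls. The B cell marker Blnk was at 4.07 and 5.04 (adjusted p = 0.102). Of 11 fibroblast and stromal markers 3 fell, Fn1 (2.11 ± 0.32), Sparc (2.07 ± 0.36) and, at 1 of its reporters, Pdgfrb (1.52 ± 0.32). Col4a1 rose at its brightest reporter (1.27 ± 0.28), while its other reporters changed by 0.70 and -0.28 and were not called. Over all named genes 8.45% fell and 6.56% rose. Of the 11 changes 6 were above 0, with a median of 0.24. The sum of the 11 markers was 36.4 to 41.2 in effector and 33.5 to 40.2 in memory samples. Both thymocyte markers were called: Cd24a fell by 1.76 ± 0.37 and Cd1d1 rose. Of the CD8 T and NK cell markers Gzma fell, and Prf1 was low in both groups. The part of other cells in the changes above was not tested, and in bulk RNA fewer cells of a type and less RNA per cell cannot be told apart.

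Calls close to the threshold depended on single samples. Cdk4 lost its call without effector sample 1 (adjusted p = 0.0503), Rpn2 without effector sample 3 (0.077) or memory sample 1 (0.0704), and Fos without effector sample 1 (0.0584) or memory sample 2 (0.0552). Anxa1 lost it without effector samples 2 or 3 or memory sample 3, with an adjusted p of up to 0.179. Mcm6, Ndufb9, Atp5j, Klf9, Tap2 and S100a9 kept theirs in 2 of the 6 fits without a sample, Ncaph, Gimap4, Slc3a2, Ezr and Fcer1g in 1, and Itga2 in 0. Median centring ended the calls of Ncaph, Gimap4, Anxa1, Slc3a2, Itga2 and Ly6e (adjusted p of 0.0759 to 0.156), and the spot pattern as a block those of Ncaph, Anxa1, Fos, Itga2 and S100a9 (0.0571 to 0.204). On the 6 compared samples alone the naive and quiescence genes had 6 rises, oxidative phosphorylation 2 falls, the activation and interferon-induced genes 1 fall each and the adhesion genes 0 rises. Of the 99 called genes of all pathway lists, 69 were called in all 6 fits without a sample.

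Whether the change from effector to memory differs between Th1 and Th2 cells was tested as an interaction, the change in Th1 minus the change in Th2. It passed at 8 of 4992 reporters (0.16%); 134 had an unadjusted p under 0.05, and with the spot pattern as a random block, which the same-numbered Th1 and Th2 samples share, 180 passed (3.61%). Of the 345 rises in Th1 cells 342 were above 0 in Th2 cells too, and of the 359 falls 345 were below 0, with the shared patterns in both comparisons. Of the 7 named genes that passed, Ifitm3 and Prnp fell further in Th1 cells. Ifitm3 changed by -5.70 in Th1 and -2.58 in Th2 cells (difference -3.13, adjusted p = 0.000758) and Prnp by -4.87 and -1.95 (difference -2.92, adjusted p = 0.00413).

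Gzma fell less in Th1 than in Th2 cells, by 5.05 against 8.11 (difference 3.06, adjusted p = 0.000258), and so did Rnf128, which encodes the E3 ligase GRAIL of T cell anergy, by 1.65 against 4.37 (difference 2.72, adjusted p = 0.0204). Prkci, the atypical protein kinase C iota gene, fell by 2.58 ± 0.33 in Th1 cells, from 3.52, 3.05 and 3.56 to 0.42, 1.05 and 0.90, and changed by 1.45 in Th2 cells. The granulocyte protein gene S100a9 differed by -2.78. The unconventional myosin gene Myo6 was at 3.18, 3.03 and 3.12 in effector and 2.34, 3.63 and 3.61 in memory Th1 cells, a change of 0.08 that was not called, while in Th2 cells the change was -3.27. The reporter that remains of the 8 has no single named gene here. The call of Rnf128 held in 5 of 12 fits without a sample, with an adjusted p of up to 0.102; those of the other named genes held in all 12.

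**Figure D5:**
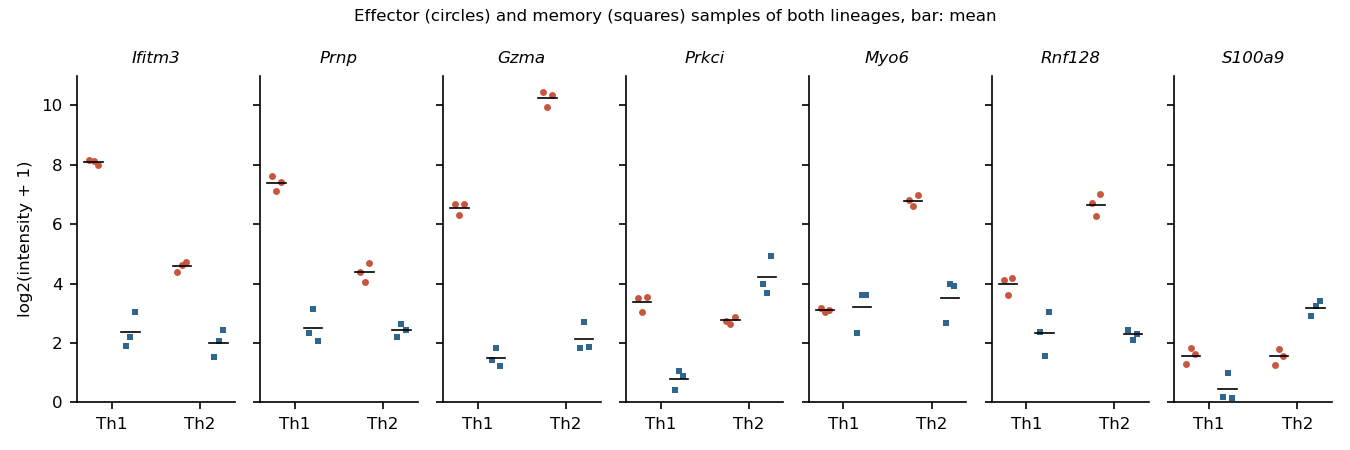
Levels, log2(intensity + 1), of the 7 named genes that passed the interaction, in effector (circles) and memory (squares) samples of Th1 and Th2 cells, 3 samples per group with a bar at the mean. Memory levels of Ifitm3, Prnp, Gzma and Rnf128 lie near each other in both lineages, while their effector levels differ; Prkci and S100a9 differ at the memory stage.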

How the data were processed

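The series holds 42 1-channel arrays of 21 samples, 3 in each of 7 groups (cDNA labelled with 33P, per the labels' protocols). The deposited values are linear spot intensities; the sources used here do not give the image reader, the background treatment or any normalisation by the authors. All arrays were quantile-normalised, 1 was added, log2 was taken, and the spots of a reporter, then arrays a and b, were averaged, so changes of dim genes are understated. The platform table names 1 gene for 3626 of 4992 reporters, several for 172 (left without a name) and lists none for 1194; the brightest reporter stands for a gene. Symbols were updated through RefSeq (GRCm38.p6; 3605 matched).

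limma 3.58.1 (R 4.3.3; lmFit, eBayes) was fitted over all 7 groups, and p-values were adjusted over 4992 reporters by Benjamini-Hochberg; every adjusted p comes from this fit unless another is named. Named are the 15 largest rises and falls with separated samples, the 5 largest interaction calls of either sign, the 8 brightest genes of either group and members of 21 pathway and 8 marker lists. Members and lists were chosen with earlier results of these data known. Nothing says that numbered samples came from separate cultures or animals, so p-values measure the spread between these samples only. The number of arrays limits precision. Alternatives were median centring, the deposited series matrix (the intensities times 1 constant per array), a pseudocount of 8, a filter on the dimmest 25% of reporters, array a or b alone, the compared samples alone, blocks for replicate number and spot pattern, and leaving out each sample. Python 3.11.15, pandas 2.3.3, numpy 2.4.6 and matplotlib 3.10.9 made tables and plots.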

Additional observations from a re-analysis of the deposited data

Results flagged for a closer look

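The change from effector to memory differed between Th1 and Th2 cells at 7 named genes by the interaction test in limma. The difference (change in Th1 minus change in Th2, log2 units) was -4.03 for Prkci (adjusted p = 0.000187), -3.13 for Ifitm3 (0.000758), -2.92 for Prnp (0.00413) and -2.78 for S100a9 (0.00656). It was 3.35 for Myo6 (0.00413), 3.06 for Gzma (0.000258) and 2.72 for Rnf128 (0.0204). Prkci was at 2.75, 2.65 and 2.88 in effector and at 4.00, 3.68 and 4.94 in memory Th2 samples, where in Th1 cells the memory samples were the low ones. Myo6 was at 6.81, 6.60 and 6.97 in effector Th2 and at 2.66, 3.99 and 3.92 in memory Th2 samples. S100a9 was at 1.25, 1.81 and 1.57 in effector and at 2.90, 3.25 and 3.42 in memory Th2 samples. In all 7 genes the 3 samples of a group lay on the same side of the 3 samples of the other stage in Th2 cells.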

How the results depend on the processing

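The 704 calls of memory Th1 minus effector Th1 (345 rises, 359 falls) numbered 292 (103 and 189) when the compared groups were fitted alone, and 212 rises were called on array b alone. Leaving out each of the 6 samples gave 465 to 823 calls, with 206 to 412 rises. The 8 interaction calls became 180 with the spot pattern as a random block, 5 on array a alone and 3 on array b alone. The 99 called list members became 61 on the compared groups alone. Without the naive samples, an alternative chosen after seeing the data, 609 reporters and 8 interactions were called.

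Same-numbered effector and memory samples deviated together at r = 0.076, 0.098 and 0.314 for numbers 1 to 3. Differently numbered ones had r of -0.193 to 0.091, all below 0 where 1 of them was a number 3. The main fit did not take the numbers as pairs, and what samples of a number share was not tested. With the replicate block 1275 reporters were called, 650 higher and 625 lower. Endoplasmic reticulum genes then fell at 11 in place of 6 and oxidative phosphorylation genes at 9 in place of 4.

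Of 112 named genes 69 kept their call under every alternative run on them, 43 lost it in at least 1, and 0 reversed. Naive and quiescence genes rose at 6 to 11 of 24, glycolysis genes fell at 6 to 7 of 10 and cell cycle genes at 20 to 30 of 62 over the alternatives. Changes among dim reporters are limited by the unknown level of empty spots, and centring moved the median change of all reporters from 0.09 to 0.11.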

Other observations

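Lysosomal genes fell at 5 of 22 and rose at 2, with a median change of -0.45, where 8.45% of all named genes fell and 6.56% rose. Those lower in memory Th1 cells were the β-galactosidase gene Glb1 (1.69 ± 0.29 SE, n = 3 per group, adjusted p = 0.000498), the cathepsin genes Ctsa (1.45 ± 0.34), Ctsz (1.45 ± 0.24) and Ctsd (1.45 ± 0.43), and Psap, the precursor of the saposins that help to degrade sphingolipids (1.18 ± 0.36). Lamp1, a glycoprotein of the lysosomal membrane, rose by 1.08 ± 0.24, from 1.72, 1.48 and 1.51 to 2.77, 2.15 and 3.02, and the other rise, Ctsb, had a second reporter that fell. Without effector sample 3 the list had 3 falls. Of 22 chaperone genes 3 rose: the mitochondrial co-chaperonin gene Hspe1 (1.44 ± 0.30), Dnaja1 (1.30 ± 0.25; 1.92 ± 0.27 at its second reporter) and Dnajc3 (0.89 ± 0.24), with Hsp90b1 the sole fall.

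Of 16 apoptosis regulators 1 rose and 2 fell, near the shares of all named genes (6.56% rose and 8.45% fell). The counts are thus no result about the list. The same shares apply to the other lists of this paragraph, which are small or had few calls. Bcl2a1d, a pro-survival member of the BCL2 family, rose by 1.77 ± 0.35 (adjusted p = 0.00176), from 1.92, 1.82 and 2.16 to 4.38, 2.99 and 3.84, and the groups did not overlap. Its reporter may take up RNA of the near-identical Bcl2a1 copies. The falls were Casp6 and Birc5. Lss, lanosterol synthase of the sterol pathway, fell by 2.42 ± 0.30 (adjusted p = 1.3e-05), from 4.19, 4.57 and 4.87 to 2.07, 2.48 and 1.83, and was the sole call among 7 genes of sterol and fatty acid synthesis. Proteasome genes were nearly level, with Psmg1 lower (1.10 ± 0.29) and Psmc4 higher (0.81 ± 0.25) among 30. Hprt, of purine salvage, fell by 0.90 ± 0.29 (adjusted p = 0.0436), 1 call among 7 nucleotide and one-carbon genes. Of 5 measured Th2 effector genes only Rnf128 was called, and the cytokine gene Il13 was at means of 2.36 and 1.67 (adjusted p = 0.283). Of the genes taken for their bright spots, the myosin light chain gene Myl12a fell by 1.57 ± 0.23 and the DNA polymerase delta subunit gene Pold2 by 1.54 ± 0.23, while Cdca3, Rpl4, Rpl29, Rpl23a, Rpl5, Rps12, Rpl19 and Gm15710 did not pass the test. Ctsd, Psap and Psmc4 kept their call in 2 of the 6 fits without a sample, Psmg1 and Hprt in 3 and Dnajc3 in 4.

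Of 39 named genes with more than 1 reporter, 28 had the same call at every reporter, and 3 (Ctsb, Pdgfrb and Ppt1) had a reporter called in the direction opposite to the change of the reporter used here. Prim1, the DNA primase gene, counted as not called (-0.22), though its dimmer reporters fell and were called (-1.16 and -1.89). Rps3a1 (0.92) and Dnajb9 (1.33) also had a dimmer reporter that was called while the brightest was not.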
